A study of Mus musculus with 6 samples.

Results

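The genes described here are 30 long mouse genes that lie in common fragile sites or in break clusters of neural progenitor cells, taken from a list of names, with no measured value in the rule. All 30 were found by symbol among 21887 protein-coding genes of the RefSeq table for GRCm38.p6, the assembly also called mm10. DNA ends had been mapped by BrITL, in which ends are tagged with a biotinylated nucleotide, pulled down and sequenced, in mouse embryonic fibroblasts. All samples were ATR+/- cells, immortalised by passage and expressing Bcl-xL, a protein that blocks apoptosis. Cells received DMSO for 18 h, or 1 µM of the ATR inhibitor ATR-45 with 0.2 µM aphidicolin for 18 h (called treated below), with 2 pull-down samples and 1 input sample per condition. Both conditions share the loss of 1 Atr allele, so neither is a wild-type control. All samples of a condition were pooled into 1 list of peaks, with 6444 DMSO peaks and 491 treated peaks and no value per sample. No result below therefore has a replicate error or a test between conditions.

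Common fragile sites are regions that form gaps and breaks on metaphase chromosomes when replication is slowed, classically by a low dose of aphidicolin. Most hold a very long gene, replicate late in S phase and have few replication origins, so that forks must travel far and can meet transcription of the gene. ATR, the kinase that signals stalled forks, protects these sites. Which sites are fragile differs between cell types and follows replication timing and transcription in that cell. In neural progenitors, break clusters likewise fall in long genes, many of which encode proteins of cell adhesion and synapses. A peak caller of the kind used here records local piles of reads, and a rise spread evenly over a whole gene would not form a peak.

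The 30 genes had a median length of 1207 kb. Dmd, the dystrophin gene, was the longest at 2390 kb and Ptn, which encodes the growth factor pleiotrophin, the shortest at 95.3 kb. Of the 30, 21 were over 1000 kb, 8 were between 300 and 1000 kb, and 2 lay on the X chromosome. A summit is the base of highest signal in a peak. It was counted in the body when it lay inside the gene and more than 1 kb from both ends, and at an end when it lay within 1 kb of either end, inside or outside the gene. The bodies summed to 38.2 Mb of the 2540 Mb between the outermost peaks of the chromosomes.

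Summits lay in or at the ends of 7 of the 30 genes, and 23 held none in either list. Over all protein-coding genes the background was 24.1% with a summit of either list and 23.8% with a DMSO summit. Of the listed genes 23.3% held a DMSO summit, so this count is at that background. Those genes have a median length of 17.2 kb, so the background is not matched for length. In the DMSO list 3 of 30 genes held a body summit (10.0%, exact Clopper-Pearson interval at 95% 2.11 to 26.5%) and 4 held an end summit (13.3%, interval 3.76 to 30.7%). In the treated list 1 gene held body summits (3.33%, interval 0.0844 to 17.2%) and 0 held an end summit (interval 0 to 11.6%). With 3 counts as the limit of a count of 0, that share could be up to 10.0%. These intervals cover counting error only. By zone, the background was 5.37% with a DMSO body summit, 19.5% with a DMSO end summit, 0.489% with a treated body summit and 0.685% with a treated end summit. Among the 38 other protein-coding genes over 1000 kb the shares were 5.26%, 0%, 0% and 0%. Among the 490 others of 300 to 1000 kb they were 15.3%, 9.18%, 1.43% and 0.204%. Among the 2550 others at least as long as Ptn they were 14.5%, 17.9%, 1.37% and 0.627%. In the same order, the 21 listed genes over 1000 kb had 14.3%, 14.3%, 4.76% and 0%. A DMSO summit in the body or at an end was held by 28.6% of these 21, against 5.26% of the 38 others of that length. For DMSO end summits the intervals of these sets (3.05 to 36.3% and 0 to 9.25%) overlapped, and no test was made.

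**Figure D1:**
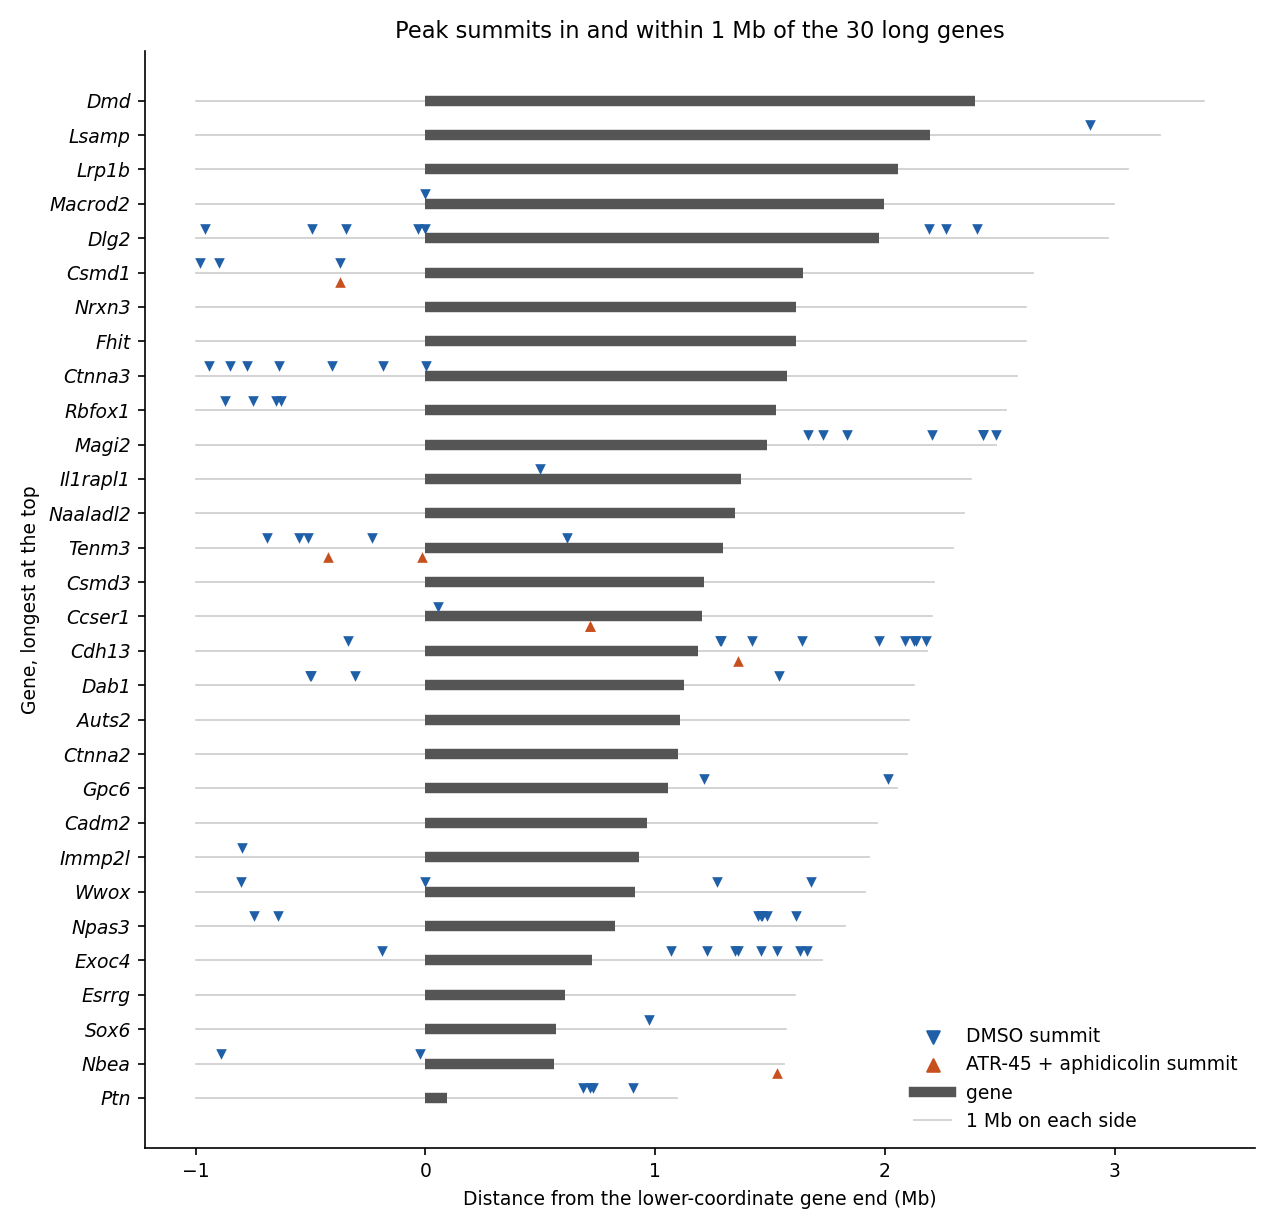
Map of the 30 genes, drawn to scale as grey bars from their lower-coordinate end, with 1 Mb on each side as a thin line. Downward blue triangles are DMSO summits and upward orange triangles are treated summits. Of the bars, 3 carry a DMSO summit in the body, 4 carry one at the end, and the treated pair of summits in Ccser1 falls on a single point.

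The 3 genes with a DMSO body summit were Ccser1, Tenm3 and Il1rapl1, and each held a single one. Ccser1, a coiled-coil protein gene of a human common fragile site, lies on chromosome 6 from 61179960 to 62382863. Its DMSO peak spanned 61232637 to 61234797 (2161 bp), with the summit 53.7 kb inside the lower end, a fold enrichment of 10.02 and a −log10 q of 22.8. Fold and q are the values of the authors' peak caller and are compared only within a list. Tenm3, a teneurin adhesion receptor gene, lies on chromosome 8 from 48225665 to 49522824. Its peak spanned 48841807 to 48844879 (3073 bp), near the middle of the gene, with a fold of 10.99 and a −log10 q of 26.2. The summit lay 233 bp from an end of Gm19744, a long non-coding RNA gene inside Tenm3, so reads there cannot be assigned to either gene. Il1rapl1, which encodes a synaptic relative of interleukin receptors, lies on the X chromosome from 86740937 to 88115948. Its peak was only 177 bp wide (87238299 to 87238475), against a median of 2855 bp in the DMSO list, with a fold of 10.5 and a −log10 q of 29.02. No other gene end of any type lay within 1 kb of the Ccser1 or Il1rapl1 summits.

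Treated summits occurred in Ccser1 alone among the 30 genes. The stronger peak spanned 61895885 to 61896326 (442 bp), with a fold of 7.73 and a −log10 q of 11.3. That fold was at percentile 97.1 of the treated list. The weaker peak spanned 61896896 to 61896993 (98 bp), with a fold of 5.30 (percentile 55.7) and a −log10 q of 4.44. Their summits lay 710 bp apart, 716 and 717 kb from the lower end of the gene, and nothing in the list separates a pair of sites from a single site split by the caller. The nearest DMSO summit was the one in Ccser1 itself, 663 kb away, so the lists marked different places in this gene. Ccser1 was the only one of the 30 with summits of both lists.

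The 4 genes with a DMSO end summit were Macrod2, Ctnna3, Dlg2 and Wwox, each with a single one at its lower-coordinate end. Macrod2, an ADP-ribose hydrolase gene, lies on chromosome 2 from 140395303 to 142392966, and its summit was 5 bp outside the gene (fold 10.8, −log10 q 25.8). Ctnna3, which encodes an alpha catenin of cell junctions, lies on chromosome 10 from 63430098 to 65003667. Its summit was 335 bp inside (fold 9.77, −log10 q 21.7) and 876 bp from an end of n-TStga3, a transfer RNA gene. Dlg2, a postsynaptic scaffold gene, lies on chromosome 7 from 90476188 to 92449246. Its summit was 208 bp outside (fold 11.96, −log10 q 29.7) and closer to the end of the neighbouring protein-coding gene Tmem126b, at 15 bp. Wwox, an oxidoreductase gene known as a fragile tumour suppressor locus, lies on chromosome 8 from 114439635 to 115352712. Its summit was 200 bp outside (fold 11.96, −log10 q 29.7). None of the 4 end peaks overlapped a treated peak, and the nearest treated summit was between 2997 kb (Macrod2) and 12607 kb (Ctnna3) away.

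For Macrod2, Ctnna3 and Dlg2 the lower-coordinate end is the side at which transcription starts, by the strand in the RefSeq promoter table (GRCm38.p6), which held 22 of the 30 genes. The promoter sequences are shown because the end peaks lie on or beside them. They run from 250 bases before to 50 bases after the start, 5′ to 3′, and capitals mark GGGCGG on either strand, the core of the GC box bound by Sp factors. The window of Macrod2 (chr2:140395180-140395479, plus strand) contained the DMSO summit, 132 bp before the start. That of Tmem126b (chr7:90475946-90476245, minus strand) contained the summit counted for Dlg2, 15 bp after the start of Tmem126b, and covers the end of Dlg2 too. The Ctnna3 window (chr10:63429848-63430147, plus strand) ended before its summit, which was 335 bp after the start. Those of Ccser1 (chr6:61180075-61180374, plus strand) and Fhit (chr14:11161986-11162285, minus strand) had no summit of either list within 1 kb.
Macrod2: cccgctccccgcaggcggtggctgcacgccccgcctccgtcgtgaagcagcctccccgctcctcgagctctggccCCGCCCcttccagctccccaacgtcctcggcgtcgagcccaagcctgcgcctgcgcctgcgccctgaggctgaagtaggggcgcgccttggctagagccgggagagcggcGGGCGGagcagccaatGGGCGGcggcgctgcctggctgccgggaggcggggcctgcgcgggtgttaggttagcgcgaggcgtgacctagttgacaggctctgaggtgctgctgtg
Tmem126b: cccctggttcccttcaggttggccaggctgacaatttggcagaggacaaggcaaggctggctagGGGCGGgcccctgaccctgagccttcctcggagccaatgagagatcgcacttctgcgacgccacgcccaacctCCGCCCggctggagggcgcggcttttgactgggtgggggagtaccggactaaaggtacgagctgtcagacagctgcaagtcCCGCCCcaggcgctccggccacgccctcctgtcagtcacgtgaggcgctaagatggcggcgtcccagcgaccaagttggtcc
Ctnna3: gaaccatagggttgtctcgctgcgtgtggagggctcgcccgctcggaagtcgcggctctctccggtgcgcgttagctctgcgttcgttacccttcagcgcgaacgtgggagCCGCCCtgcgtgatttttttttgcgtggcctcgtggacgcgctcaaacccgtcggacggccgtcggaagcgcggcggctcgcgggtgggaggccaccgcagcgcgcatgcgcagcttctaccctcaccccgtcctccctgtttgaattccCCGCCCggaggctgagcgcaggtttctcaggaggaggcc
Ccser1: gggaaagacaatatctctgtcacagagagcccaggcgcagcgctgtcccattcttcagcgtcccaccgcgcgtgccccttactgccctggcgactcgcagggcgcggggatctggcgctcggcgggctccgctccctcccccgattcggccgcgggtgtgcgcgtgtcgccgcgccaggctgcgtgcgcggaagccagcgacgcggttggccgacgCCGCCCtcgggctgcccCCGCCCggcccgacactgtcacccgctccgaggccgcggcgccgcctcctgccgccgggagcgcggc
Fhit: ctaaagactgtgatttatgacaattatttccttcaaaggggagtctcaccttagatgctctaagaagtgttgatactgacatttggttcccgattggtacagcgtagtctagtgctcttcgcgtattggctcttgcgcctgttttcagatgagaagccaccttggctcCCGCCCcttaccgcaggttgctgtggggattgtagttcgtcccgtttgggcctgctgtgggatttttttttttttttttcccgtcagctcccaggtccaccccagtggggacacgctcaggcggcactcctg

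Promoters of these long genes had a CpG content like that of other genes. The median count of CpG dinucleotides was 12.5 in the 22 listed promoters, against 13 in 17492 promoters of protein-coding genes, taking for each gene the first start in the table. The table's first start lay within 1 kb of the outer gene end for 16 of the 22 and further inside for 6 (Dlg2, Dmd, Magi2, Nrxn3, Sox6 and Tenm3). GGGCGG occurred on either strand in 8 of 22 listed promoters (36.4%), against 46.3% of all. TGACTCA, the site of AP-1 factors, occurred on either strand in 2 of 22 (9.09%, in Dmd and Esrrg), against 4.56% of all, and these motifs cannot overlap each other. Over all promoters the share with a DMSO summit within 1 kb of the start was 0.569% under 5 CpG, 5.66% at 5 to 9, 22.4% at 10 to 19 and 41.4% at 20 or more. Of the 7 listed promoters with 20 or more CpG, 2 had such a summit, namely Ctnna3 (39 CpG) and Macrod2 (33). Those of Ccser1 (46), Ctnna2 (38), Nbea (36), Immp2l (32) and Magi2 (29) had none. Of the 9 listed promoters with 10 to 19 CpG, 0 had one. Whether any of these genes was transcribed in the cells was not measured.

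**Figure D2:**
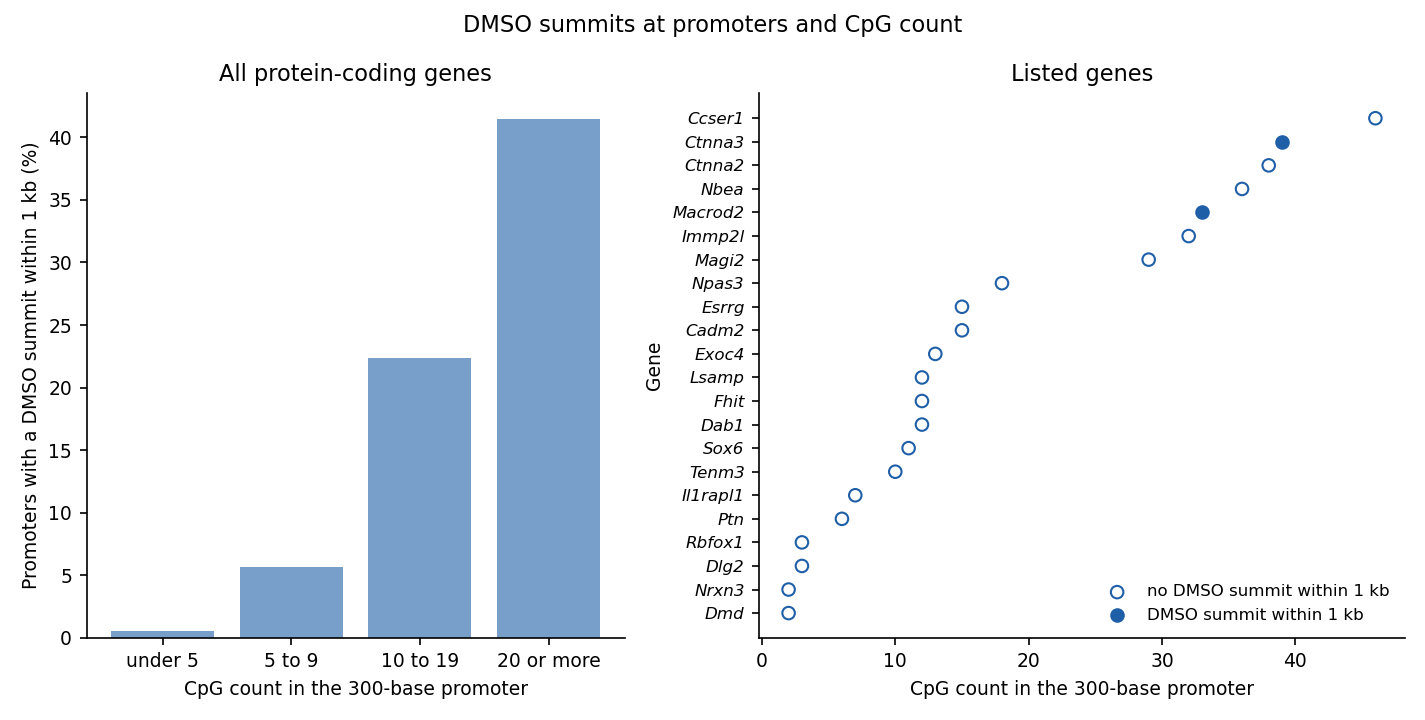
Left, share of protein-coding promoters with a DMSO summit within 1 kb of the start, by the number of CpG in the 300-base promoter. Right, the CpG count of each of 22 listed promoters, where filled points have such a summit. Shares rise from 0.569% to 41.4% across the classes, and the filled points are Macrod2 and Ctnna3.

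The genes are given by role, beside the 23.8% of all protein-coding genes with a DMSO summit. Of the 9 genes of classical fragile sites, 3 held a DMSO summit (Ccser1, Macrod2 and Wwox) and 1 held treated summits. The other 6 held none in either list. They are Fhit, a nucleotide hydrolase gene at the most fragile human site, Dmd, Lrp1b, a lipoprotein receptor relative, Immp2l, a mitochondrial peptidase gene, Naaladl2, a peptidase-like gene, and Exoc4, which encodes an exocyst subunit. Of the 13 adhesion and synapse genes, 4 held a DMSO summit (Ctnna3, Dlg2, Il1rapl1 and Tenm3) and 0 a treated one. Those without were the catenin gene Ctnna2, the scaffold gene Magi2, the cell adhesion genes Lsamp, Cadm2, Cdh13 and Nrxn3, Csmd1 and Csmd3, which encode membrane proteins with complement control domains, and Nbea, a gene of vesicle trafficking. None of the 3 surface signalling genes held a summit. These were Gpc6, a glypican gene, Ptn, and Dab1, which encodes the adaptor of reelin signalling. None of the 5 nuclear regulators did either. These were the transcription factor genes Npas3, Sox6 and Esrrg, the splicing factor gene Rbfox1 and Auts2, a gene of a Polycomb complex. With so few genes a group, these counts show no difference between roles.

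The DMSO peaks in these genes were of middling strength within their list. The 7 DMSO peaks had folds from 9.77 to 11.96, at percentiles 28.5 to 61.6 of the list, whose median fold was 10.99 and highest 33.8. Counting only DMSO peaks of at least the median fold left 0 genes with a body summit, against 3.08% of all protein-coding genes, and 2 with an end summit (Dlg2 and Wwox), against 11.6%. Tenm3 missed this cut narrowly, with a fold of 10.9891 against a median of 10.9897. In the treated list the same rule kept 1 gene with a body summit (Ccser1), against 0.306%, and 0 with an end summit, against 0.343%. With the DMSO list cut to its 491 peaks of highest −log10 q, 0 listed genes had a body summit and 0 an end summit, against 0.471% and 1.85% of all protein-coding genes, so that 0 of 30 is near the background there. The caller's values gave back the number of pull-down fragments at a summit, as described under processing. It was 39 in Ctnna3, 40 in Ccser1, 44 in Macrod2 and Tenm3, 48 in Dlg2 and Wwox, and 51 in Il1rapl1, against a list median of 49 and a minimum of 35. The treated peaks in Ccser1 had 55 and 37 fragments, against a median of 42 and the same minimum. The caller set a background term against the scaled pull-down, in which 1 DMSO fragment counts 0.805, so that the 39 fragments of Ctnna3 count 31.4. On this scale the term was at the genome floor of 2.32 in 5 of the 7 DMSO peaks. It was 1.03 times the floor in Macrod2 and 1.30 times in Il1rapl1.

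**Figure D3:**
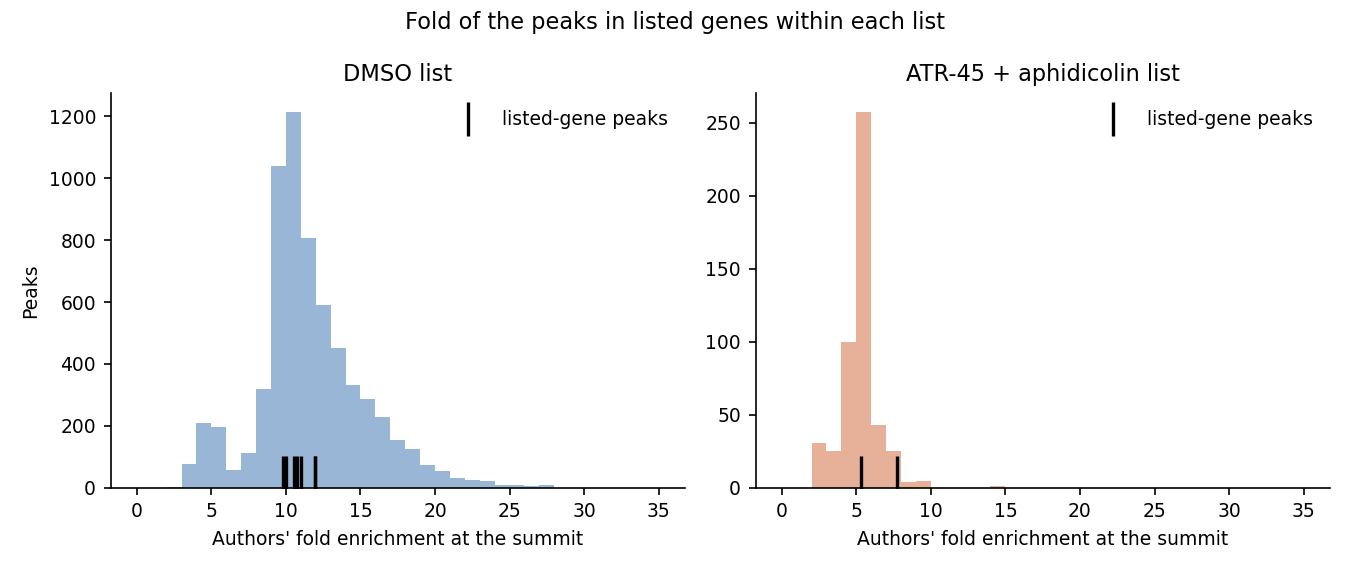
Histograms of the authors' fold enrichment in the DMSO list (left, 6444 peaks) and the treated list (right, 491 peaks), in bins of 1. Black ticks mark the 7 DMSO and 2 treated peaks in the listed genes, which lie between 9.77 and 11.96 (DMSO) and at 5.30 and 7.73 (treated).

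Set against length, the bodies of these genes held few DMSO summits. There were 3 in 38.2 Mb, or 0.0785 per Mb (exact Poisson interval at 95% 0.0162 to 0.229), against 1.40 per Mb (1.33 to 1.48) in the bodies of all protein-coding genes and 2.54 per Mb over the whole span. The treated list had 2 summits, or 0.0524 per Mb (0.00634 to 0.189), against 0.126 (0.105 to 0.150) and 0.193. The DMSO intervals of listed and all genes did not overlap, while the treated intervals did, so a difference was not detectable at the depth of the treated list. The treated value rests on Ccser1 alone: it was 0 without that gene and 0.0262 per Mb with its pair of summits counted once. Without Ccser1 the DMSO value was 0.0541 per Mb.

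Density fell with gene length over all protein-coding genes. In body summits per Mb, the listed genes over 1000 kb did not differ from the others over 1000 kb beyond counting error. DMSO body summits per Mb were 4.39 in genes under 20 kb, 1.95 at 20 to 100 kb, 1.16 at 100 to 300 kb, 0.541 at 300 to 1000 kb and 0.0757 over 1000 kb. In the treated list they were 0.322, 0.195, 0.104, 0.0377 and 0.0252. Over 1000 kb, the 21 listed genes had 0.0937 DMSO summits per Mb (0.0193 to 0.274) and the 38 others 0.0635 (0.0131 to 0.186). For the treated list the values were 0.0624 (0.00756 to 0.226) and 0 (up to 0.0781). The intervals overlapped in both lists. At 300 to 1000 kb, the 8 listed genes held 0 DMSO body summits (up to 0.607 per Mb) and the 490 others 0.555 per Mb (0.463 to 0.659). Those 8 genes were longer, with a median of 775 kb against 421 kb. This class was therefore not matched for length, and neither a likeness nor a difference can be read from it. Among the 30 genes themselves, Spearman's rho between length and DMSO body summits was 0.0578, given as a description over genes that are not independent.

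**Figure D4:**
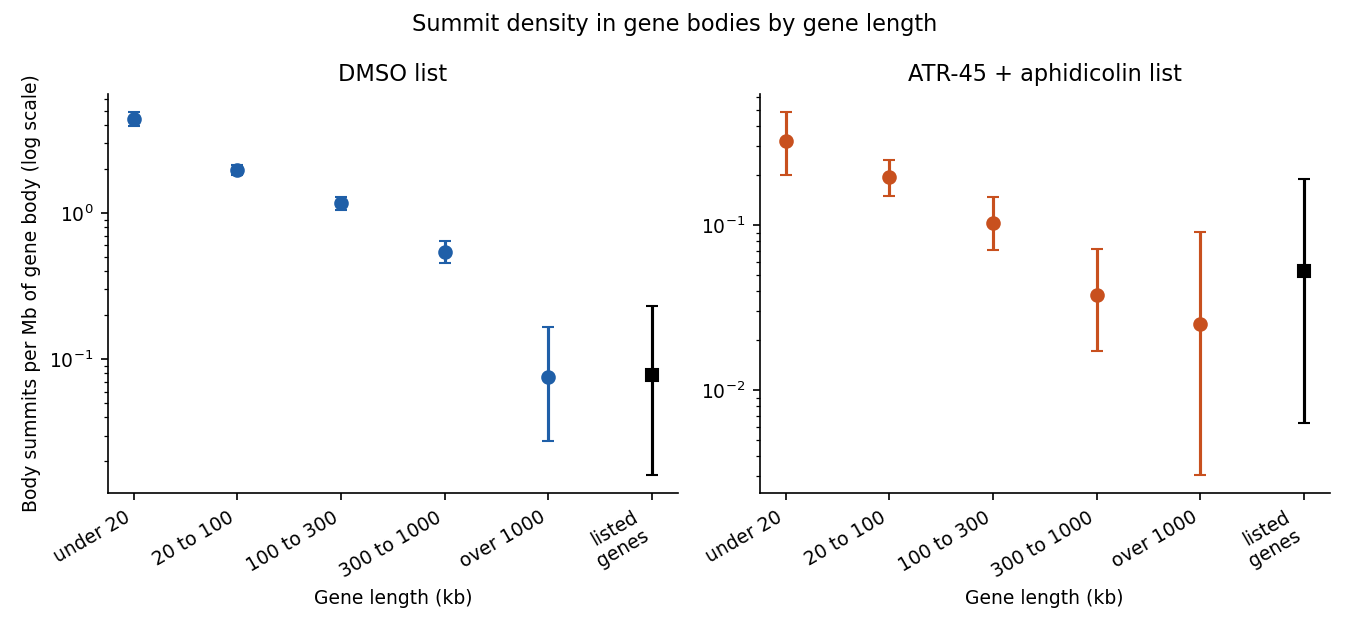
Body summits per Mb of gene body (log scale) by gene length, with exact Poisson intervals at 95%, for the DMSO list (left) and the treated list (right). Circles are all protein-coding genes of a length class, the listed ones included, and black squares are the 30 listed genes. The squares lie at 0.0785 and 0.0524, near the class over 1000 kb.

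Summits were also set against the distance from the gene ends. In the 490 other genes of 300 to 1000 kb, DMSO summits numbered 1.47 per Mb at 1 to 10 kb from the nearer end, 0.485 at 10 to 50 kb, 0.648 at 50 to 200 kb and 0.184 (0.0843 to 0.350) beyond 200 kb. The listed genes held 0 summits in 0.540 Mb at 1 to 10 kb and 0 in 2.40 Mb at 10 to 50 kb. They held 1 in 8.70 Mb at 50 to 200 kb (0.115 per Mb, 0.00291 to 0.640) and 2 in 26.6 Mb beyond 200 kb (0.0753, 0.00912 to 0.272). The treated pair in Ccser1 lay beyond 200 kb as well. Beyond 200 kb the intervals of the listed genes and of those of 300 to 1000 kb overlapped. The 38 other genes over 1000 kb held 0 DMSO summits at 1 to 10 kb and at 10 to 50 kb. They had 0.175 per Mb (0.0212 to 0.634) at 50 to 200 kb and 0.0311 (0.000788 to 0.174) beyond 200 kb, and their intervals overlapped those of the listed genes in every zone.

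Protein-coding genes nested inside the listed ones held no summits. The bodies of 8 listed genes enclosed 10 other protein-coding genes, among them Lrrtm3 in Ctnna3, Lrrtm1 in Ctnna2, Lrrn3 in Immp2l and Flrt3 in Macrod2, which encode leucine-rich repeat proteins of neurons and adhesion. No summit of either list lay in or within 1 kb of any of the 10, beside 24.1% of all protein-coding genes with one. No test was made on so few genes. Non-coding genes were not counted here, and the Tenm3 summit lay 233 bp from an end of Gm19744.

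The regions around these genes held DMSO summits at about the level around other genes over 1000 kb. Within 1 Mb on each side lay 75 DMSO summits in all, or 1.25 per Mb, against 2.13 per Mb around the other genes of 300 to 1000 kb and 1.18 around the others over 1000 kb. For 13 of the 30 genes there was none (43.3%), against 17.1% and 39.5% of those sets. No summit of either list lay inside, at an end or within 1 Mb for 10 genes (33.3%), against 13.3% and 36.8%. The others ranged up to 10 summits beside Cdh13, 9 beside Exoc4 and 7 each beside Dlg2, Magi2 and Npas3. The distance from a gene to the nearest DMSO summit outside it had a median of 662 kb, from 24.7 kb at Nbea and 33.5 kb at Dlg2 to 6006 kb at Il1rapl1. The median was 279 kb for the others of 300 to 1000 kb and 741 kb for those over 1000 kb. For the 23 genes without a DMSO summit, the stretch free of summits that covers the gene had a median of 3.93 Mb, against 4.18 Mb for the others over 1000 kb. It ran from 1.26 Mb at Exoc4 to 11.9 Mb at Cadm2 and was 6.17 Mb at Fhit and 9.81 Mb at Dmd.

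Treated summits lay within 1 Mb outside 4 of the 30 genes. The nearest was 16.7 kb from Tenm3, which had 2 such summits and no treated summit inside. Cdh13 had 1 at 174 kb, Csmd1 had 1 at 373 kb, where a DMSO summit lay too, and Nbea had 1 at 973 kb. For the other genes the distance ran up to 21656 kb at Cadm2. In total there were 5 treated summits in these flanks, or 0.0833 per Mb, against 0.160 around the other genes of 300 to 1000 kb and 0.224 around the others over 1000 kb. The share of genes with no treated summit in the flanks was 86.7%, against 79.8% and 73.7% in those sets.

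**Figure D5:**
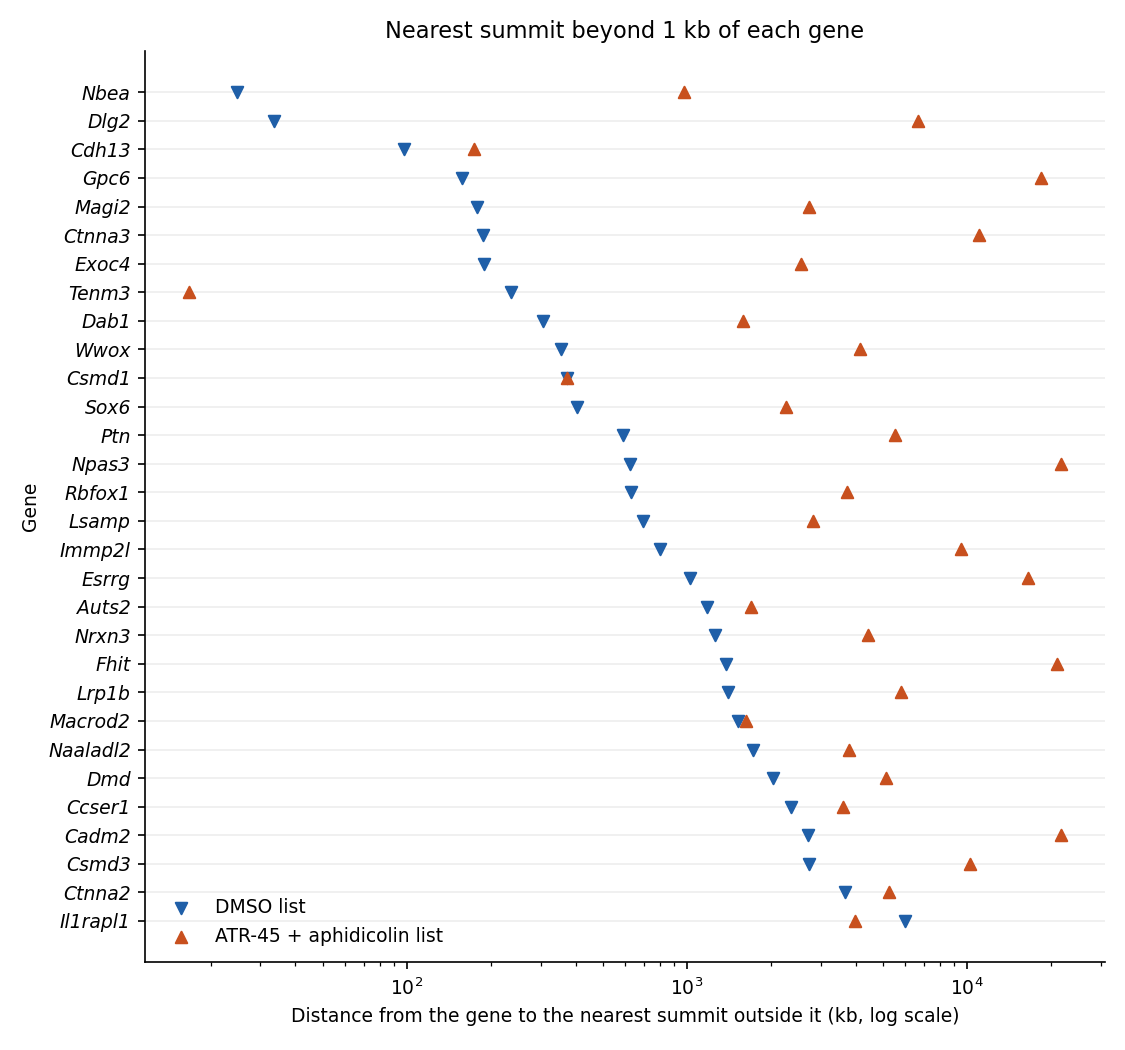
Distance in kb (log scale) from each of the 30 genes to the nearest summit more than 1 kb outside it, for the DMSO list (blue) and the treated list (orange), ordered by the DMSO distance. DMSO distances run from 24.7 kb at Nbea to 6006 kb at Il1rapl1, and the treated summit nearest to any of the genes lies 16.7 kb from Tenm3.

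The numbers in the peak names gave a view of calls that are not in the deposited lists. These numbers rise along the genome in both lists, with gaps, up to 64322 (DMSO) and 5400 (treated), and were taken here to number the calls made ahead of some selection, which no label or header describes. Over the whole span there were 22.8 unlisted DMSO numbers per Mb. Between the listed peaks that flank each of the 30 genes, the median was 5.69 per Mb, from 0.650 at Csmd1 and 0.724 at Csmd3 to 24.2 at Nbea and 20.5 at Npas3. It lay below the whole-list value for 29 of the 30. For the other genes of 300 to 1000 kb the median was 11.01 and for those over 1000 kb it was 5.08. Both medians lay below the whole-list value too, so low values were not particular to the listed genes. In the treated list the whole-span value was 1.93 per Mb. The 25 listed genes with treated peaks on both sides had a median of 0.705, against 0.950 and 0.876 in the other long genes, and the highest value was 4.66 at Auts2. The stretches between flanking peaks reach beyond the genes, so these values describe the neighbourhood as well. Genes between the same flanking peaks share a value, as Immp2l and Npas3 did in the treated list (0.430 per Mb each). The medians are therefore over genes that are not independent.

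Another 28 long genes of fragile sites or neural break clusters gave a like picture. Of these, 2 held a DMSO body summit (7.14%) and 4 a DMSO end summit (14.3%), and 0 held a treated summit of either kind. The body summits were in Nfia, a nuclear factor I gene (fold 14.6, percentile 82.0), and in Foxp1, a forkhead factor gene (fold 11.2). The end summits included those at Foxp1 (fold 14.4), Fto, an RNA demethylase gene (11.7), and Nf1, the neurofibromin gene (11.5). That of Fto lay 187 bp from an end of its neighbour Rpgrip1l. Body summits numbered 0.0714 per Mb (0.00865 to 0.258) in the DMSO list, beside 0.0785 in the 30 listed genes.

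What a count of 0 allows differed between the lists. With 3 summits as the limit of a count of 0, a single gene without a body summit could have up to 1.26 per Mb (Dmd) to 32.2 per Mb (Ptn). This limit lay under the whole-list rate of 2.54 per Mb for 14 of the 27 genes without a DMSO body summit. It lay under the treated rate of 0.193 for 0 of the 29 genes without a treated one. At this depth a single gene without a treated summit cannot be told from an average stretch of the genome. The limit follows from gene length alone. Its lowest value, 1.26 per Mb, lay above the DMSO body rates at 300 to 1000 kb (0.541) and over 1000 kb (0.0757). A count of 0 therefore does not show that a single gene was low in DMSO summits for its length.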

How the data were processed

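DNA ends were measured by BrITL in 6 samples. The authors deposited 1 peak list per condition, and the peak names read all pull-downs against all inputs, so replicates were pooled. The submitters' processing notes list the build mm10 and the tools MACS2 2.1.0, Picard 1.141, STAR 2.5.2a, bcl2fastq 2.17.1.14 and SAMtools 0.1.19, with no role for any of them. How peaks were selected for deposit is not stated in the labels or headers. Each peak carries a deposited score, a fold enrichment (a ratio by the authors' caller) and the authors' −log10 p and −log10 q values. The lowest −log10 q was 18.5 (DMSO) and 3.38 (treated), so the lists were cut at unlike levels, and folds were compared within a list alone.

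Summits were taken as the peak start plus the deposited offset, 1-based. The gene table gives the outermost start and end of each gene on 21 chromosomes, without exons, so body summits could not be split into exons and introns. The members and gene lists were chosen with earlier results of these data known, so no test was made over them. Their counts stand beside the same counts over all protein-coding genes. All 30 members are named. The other genes named are those of the second list with a summit (1 is not reported here), genes with an end within 1 kb of a member summit, the 5 of over 300 kb with the most body summits per list (ties by symbol), and a few examples chosen after their values were seen. Fragments were recovered by inverting the caller's formulas (a ratio of pull-down to background with 1 added to both, and a Poisson tail for p), which gave a whole multiple of the scaling step, within 0.02 of a step, for 100% of peaks. The step was 0.805 (DMSO) and 0.439 (treated). Counting and inversion were tested on simulated data. The depth of each sample is not in the files used here. Alternatives were other end zones, whole peaks in place of summits, stronger peaks, merged summits, and genes or regions left out. The tools were pandas 2.3.3, matplotlib 3.10.9, SciPy 1.17.1 and NumPy 2.4.6 under Python 3.11.15.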

Additional observations from a re-analysis of the deposited data

How the results depend on the processing

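The counts of listed genes with a summit were unchanged with end zones of 0.5, 2 and 5 kb. With any base of a peak in place of the summit, 4 genes had a DMSO body peak (Wwox added to the 3). Peak strength changed the DMSO counts. With peaks of at least the median fold, 0 genes had a body summit and 2 an end summit, where Tenm3 fell just under the cut. With as many DMSO peaks as the treated list holds, taken by highest −log10 q, 0 genes had a body summit and 0 an end summit, beside 0.471% and 1.85% of all protein-coding genes. Leaving out summits beside any other gene left 2 genes with a DMSO body summit (Ccser1 and Il1rapl1). That alternative, whole peaks for treated ends and merged summits for densities were chosen after seeing the data. Without Ccser1 the treated density was 0 per Mb. The density of the longest class over that of all genes was 0.0540 (DMSO) and 0.201 (treated). With 5 classes of equal gene number it was 0.678 and 0.763, where the longest class starts at 57.1 kb and so takes in far shorter genes. The treated gene counts did not change under any alternative run. Without the dense region of chromosome 15 the density over all protein-coding genes was 1.40 (DMSO) and 0.125 (treated) per Mb. No paired analysis was possible because each list pools its samples, and leaving out a replicate was not possible for the same reason. Input samples enter only through the caller's background term.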

Other observations

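Among all protein-coding genes over 300 kb, those with the most DMSO body summits were not fragile site genes of the list. Gse1, a gene of a histone deacetylase complex, held 8 (22.8 per Mb), Pakap held 5 (10.9 per Mb), Runx2, a transcription factor gene of bone, held 5 (15.8 per Mb), and Ank3, an ankyrin gene, and Arid1b, a chromatin remodelling gene, held 3 each (6.10 and 8.54 per Mb). At 3 summits 9 genes were tied, and those named are the first by symbol. Of the 9, 1 (Maml3) held a treated body summit too. In the treated list Aff2, a gene of an X-linked fragile site of another kind (a repeat expansion in humans), held 2 body summits (3.92 per Mb) and 0 DMSO summits. Dlc1, a tumour suppressor gene, held 2 treated summits (5.22 per Mb) and 1 DMSO summit. Maml3, a Notch coactivator gene, and Ncald, a calcium sensor gene, held 1 treated summit each, with 3 and 0 DMSO body summits, and are the first by symbol of 5 genes tied at 1. Ccser1 ranked with these at 2 treated summits, although at 1203 kb it is far longer than the others.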
